A study of Mus musculus with 10 samples.

Results

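The genes described here are 38 markers of macrophages and monocytes, chosen by symbol from a list that also separates markers of macrophages that live in the heart (Lyve1, Folr2, Timd4, Cd163, Mrc1) from markers of monocytes recruited from blood (Ccr2, Ly6c2). The deposited table of 20692 genes holds 37 of them, and 32 had enough counts to be tested. Polyadenylated RNA was sequenced from hearts of wild-type FVB/NJ mice labelled 9 weeks old and female. In 5 of the mice the aorta had been narrowed 1 week earlier (transverse aortic constriction, TAC), which loads the left ventricle with pressure, and the other 5 were sham-operated. The titles of these other libraries do not say sham, and they were assigned to the sham group from the design text of the series and the deposited table, and the labels give no interval after the sham operation. The labels call the tissue both heart apex and whole heart. The libraries do not keep the strand.

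Macrophages are phagocytes that clear dying cells and debris and signal to fibroblasts, vessels and muscle. The heart holds a population seeded before birth that renews itself in place, and under injury or pressure load blood monocytes enter and become macrophages as well. Survival of both depends on the receptor encoded by Csf1r, and the transcription factor PU.1 sets much of their gene programme by binding purine-rich sites near its target genes. In whole tissue, more cells of a type and more RNA per cell cannot be told apart, and this holds for every level below.

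Libraries held between 7410967 and 10126574 counts. The library labelled TAC replicate 1 (TAC 1 below; the others are named likewise) went against its female label. Its counts were 14 for Xist, transcribed from the inactive X chromosome (1042 to 1561 elsewhere), and 155 for the Y-linked Ddx3y (0 elsewhere). Results are therefore given with and without it. Cardiomyocyte genes dominated all libraries: Myh6, the main adult myosin heavy chain, averaged 42830 CPM in sham and 31780 CPM in TAC (CPM are read counts scaled to a common library size, with trimmed-mean factors). Myl7, an atrial light chain, averaged 0.770 CPM in sham libraries, against 0.723 CPM in those of TAC. The macrophage-defining Csf1r, Emr1 (F4/80), Cd68, Fcgr1 and Mertk were all detected in every library.

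Macrophage and monocyte markers were higher after TAC. Of the 32 tested, 26 (81.2%) rose, 0 fell and 6 did not pass, where 18.8% of all 12001 tested genes rose and 17% fell (edgeR's quasi-likelihood test, adjusted p under 0.05). At an unadjusted p under 0.05, 27 were higher and 0 lower, and DESeq2 and limma-voom also called 0 lower. The median log2 fold change of the tested markers was 0.83, against 0.00 for all tested genes, and 8 rose at least 2-fold by the fitted value. In 20 of the 32 every TAC library lay above every sham library, a pattern shown by 12.2% of all tested genes. Beside these rises, the cardiomyocyte markers Myh6, Tnnt2, Tnni3 and Ryr2 fell, with log2 fold changes of -0.43, -0.47, -0.60 and -0.35 (edgeR adjusted p from 0.000146 to 0.0335), and Actc1 had -0.12 (edgeR adjusted p = 0.407). With library totals in place of trimmed means Myh6 did not pass (-0.33, edgeR adjusted p = 0.0579). Their part in the marker results was not tested. The summed level of the markers ran from 325.9 to 375.5 CPM in sham. In TAC replicates 2 to 5 it ran from 491.4 to 536.0 CPM, and in the library labelled TAC replicate 1 it reached 841.4 CPM.

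The library labelled TAC replicate 1 stood above the other TAC libraries in most markers. It was the highest TAC library in 26 of the 32, where it was the highest in 26.8% of all tested genes, and its level was 1.77 times the mean of the other TAC libraries at the median marker, against a ratio of 1.00 at the median gene. It was the lowest TAC library for Pf4, Cd163, Timd4 and Lyve1. Without it, 24 markers rose, against 16.7% of all genes, the calls of Fcgr1 and Cybb were lost, 3 markers (Aif1, Cd52 and Trem2) in place of 8 rose at least 2-fold, and the median log2 fold change of the markers fell to 0.62. The log2 fold change was smaller without it in 27 of the 32. The number of markers whose groups did not overlap was 20 again. Among all genes tested without it 13.3% showed that pattern, against 12.2% with it, since fewer TAC libraries have to lie apart.

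**Figure D1:**
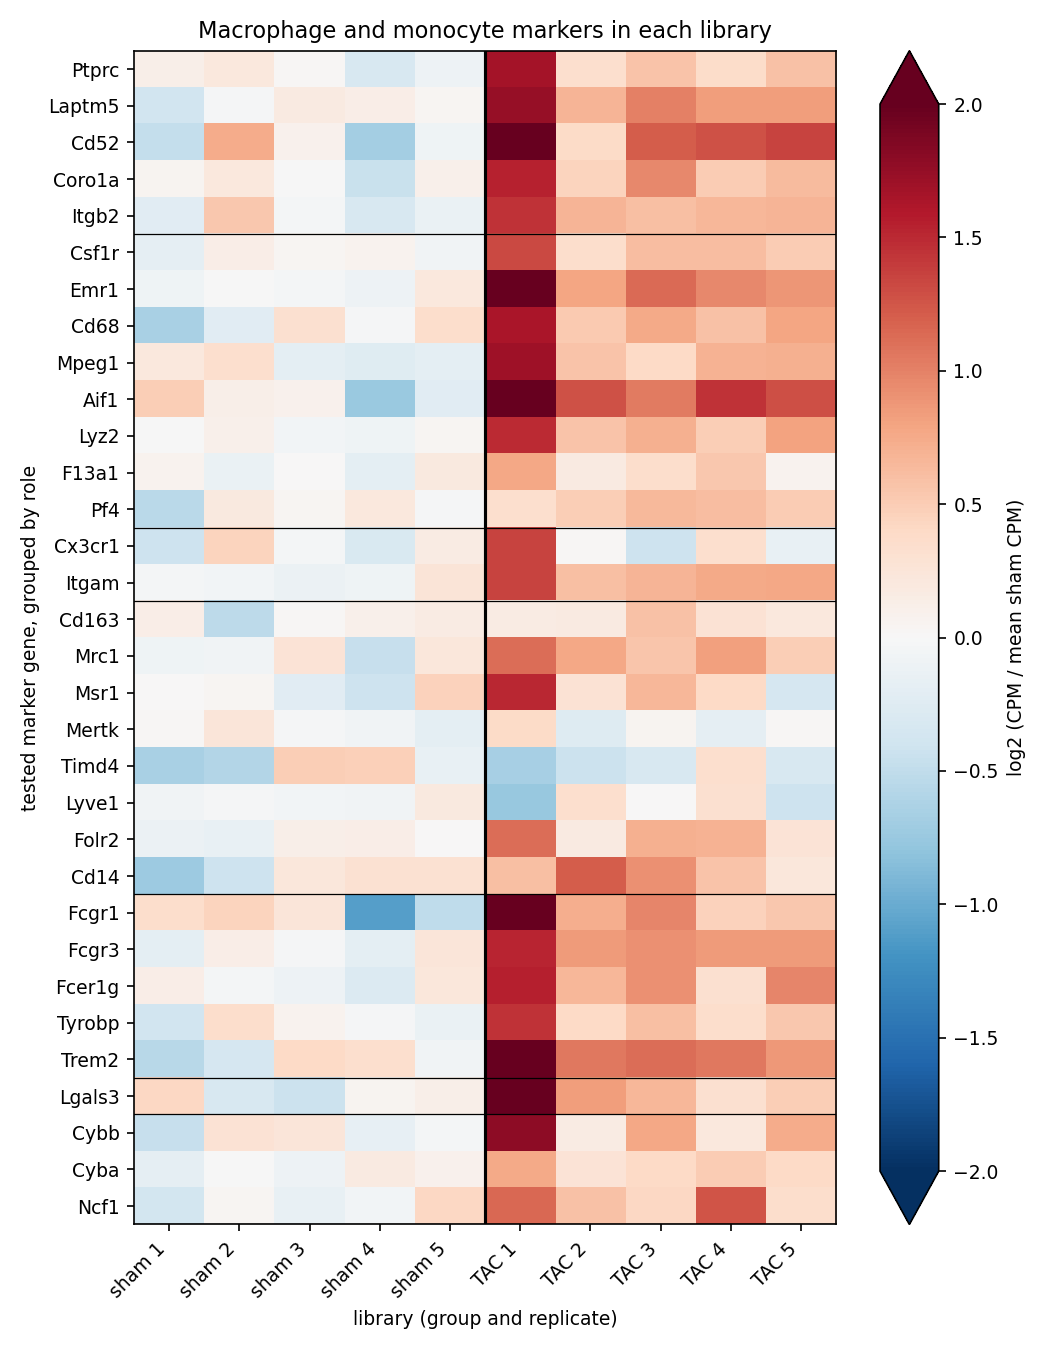
Heat map of the 32 tested markers (vertical axis, grouped by role between the horizontal lines) in the 10 libraries (horizontal axis). Colour is the log2 ratio of a library's CPM to the mean sham CPM, limited at 2 in either direction. TAC columns are mostly red, TAC 1 is the darkest for most genes, and the rows of Timd4, Lyve1 and Mertk hold no step between the groups.

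The start regions of the markers are shown because PU.1 is known to regulate many macrophage genes. A link between its sites and the change after TAC was not tested. RefSeq promoters (GRCm38.p6, from 250 bases before to 50 bases after the start) matched 29 of the 37 markers by symbol. The letters GAGGAA, the core of many PU.1 sites, were searched on both strands, so that they can also read TTCCTC. They were found in 15 of the 29 (51.7%), against 31.3% of all 27025 genes in the table (28.3% of its 32851 promoters). By call, they were found for 12 of the 20 markers that rose and 3 of the 9 others. These others mix tested markers that did not pass with untested ones, and the 3 with a match (Ly6c2, Cd53 and Ms4a7) were all untested. The split therefore does not set markers that rose against markers that did not. The longer GAGGAAGT, which contains GAGGAA, was found for 4 of the 29 (Ly6c2, Cd53, F13a1 and Pf4), against 3.69% of all genes. A match is a stretch of letters and does not show binding.

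Matches are in capitals in the promoters of Fcgr3, Laptm5 and Itgam, which have the 3 smallest adjusted p values among risen markers with a match. Mertk is shown beside them. It was picked among markers that did not pass and had no match, as the one with the smallest log2 fold change in size. Both choices used the match, so the contrast was fixed in advance and shows no link. Other markers that rose, such as Lyz2, Fcer1g and Mpeg1, had no match. The Fcgr3 match starts 6 bases before the gene's start (chr1:171059354-171059653, minus strand), and that of Laptm5 38 bases before it (chr4:130913066-130913365, plus strand). Itgam has 3 matches, which start 84 and 15 bases before and 32 bases after its start (chr7:128062390-128062689, plus strand). The Mertk window is chr2:128698665-128698964, plus strand.
Fcgr3: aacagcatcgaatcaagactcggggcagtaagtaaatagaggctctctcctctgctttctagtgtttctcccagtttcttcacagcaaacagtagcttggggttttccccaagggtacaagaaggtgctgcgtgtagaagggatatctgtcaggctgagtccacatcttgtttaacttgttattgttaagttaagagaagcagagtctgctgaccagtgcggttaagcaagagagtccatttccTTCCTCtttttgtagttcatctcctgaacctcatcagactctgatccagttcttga
Laptm5: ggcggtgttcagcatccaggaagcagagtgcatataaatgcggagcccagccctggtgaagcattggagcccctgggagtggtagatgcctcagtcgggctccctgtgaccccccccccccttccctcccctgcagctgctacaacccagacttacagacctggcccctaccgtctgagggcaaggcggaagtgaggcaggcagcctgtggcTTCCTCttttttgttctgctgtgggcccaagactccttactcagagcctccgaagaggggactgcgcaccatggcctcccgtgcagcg
Itgam: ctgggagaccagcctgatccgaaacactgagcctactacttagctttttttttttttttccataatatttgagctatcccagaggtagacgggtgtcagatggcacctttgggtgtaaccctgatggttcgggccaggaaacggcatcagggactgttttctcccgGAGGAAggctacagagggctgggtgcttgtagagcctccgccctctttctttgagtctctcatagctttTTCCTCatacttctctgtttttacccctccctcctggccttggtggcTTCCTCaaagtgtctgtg
Mertk: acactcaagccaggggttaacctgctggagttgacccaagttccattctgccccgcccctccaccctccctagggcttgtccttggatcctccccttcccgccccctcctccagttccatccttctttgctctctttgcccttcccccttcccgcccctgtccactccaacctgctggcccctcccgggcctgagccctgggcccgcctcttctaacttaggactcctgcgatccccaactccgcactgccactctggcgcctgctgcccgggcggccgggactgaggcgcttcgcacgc

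Markers carried by all leukocytes rose. All 5 tested ones passed (Laptm5, Coro1a, Itgb2, Cd52 and Ptprc; median log2 fold change 0.88), also without the library labelled TAC replicate 1. Laptm5, a lysosomal membrane protein of blood cells, stood at 16.7, 21.3, 24.5, 23.7 and 22.2 CPM in sham replicates 1 to 5 and at 72.6, 34.8, 43.6, 38.6 and 38.8 CPM in TAC replicates 1 to 5. Every TAC library was above every sham library, and TAC 1 was far above the rest. The log2 fold change was 1.08 ± 0.18 (SE; adjusted p = 0.000739, edgeR), and 0.85 without TAC 1. Coro1a, which binds actin in leukocytes, was at 9.22, 10.2, 8.78, 6.52 and 9.50 CPM in sham and 25.8, 12.1, 17.2, 12.5 and 13.7 CPM in TAC. The groups again did not overlap, and the log2 fold change was 0.88 ± 0.20 (adjusted p = 0.00503, edgeR).

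Ptprc, which encodes the leukocyte phosphatase CD45, went from 3.56 ± 0.499 to 6.22 ± 2.88 CPM (SD, n = 5 each; edgeR adjusted p = 0.0267). Its TAC mean was 4.94 CPM without TAC 1 (edgeR adjusted p = 0.0298), and the call was lost without sham replicate 4 or 5 (edgeR adjusted p = 0.0663 and 0.0579). Itgb2, the beta subunit shared by the leukocyte integrins, went from 6.26 ± 1.66 to 11.3 ± 3.24 CPM. Cd52, a small surface glycoprotein of lymphocytes and myeloid cells, had the highest log2 fold change of the group, 1.46 ± 0.38, from low counts. It had 5, 10, 6, 4 and 6 counts in sham and 32, 7, 14, 17 and 17 in TAC, with overlapping groups. It passed the count minimum mainly through TAC libraries, where it was high. In GENCODE M21, 14.5% of its exon bases lie under the antisense gene Crybg2. The tetraspanin Cd53 had too few counts to be tested, with 8, 9, 9, 8 and 8 in sham and 16, 5, 12, 6 and 8 in TAC. Those groups overlapped (exact permutation test on CPM, two-sided p = 0.659).

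Genes that define the lineage rose in all 8 cases tested (Aif1, Lyz2, Emr1, Csf1r, Cd68, Mpeg1, Pf4 and F13a1; median log2 fold change 0.88), and all 8 also without TAC 1. Aif1, which encodes the actin-bundling protein IBA1, was at 1.89, 1.46, 1.42, 0.801 and 1.14 CPM in sham. It was at 5.89, 3.26, 2.77, 3.65 and 3.29 CPM in TAC, above every sham library. With a log2 fold change of 1.48 ± 0.26 (adjusted p = 0.00096, edgeR) it had the highest value among the 32 tested markers. Lyz2, the lysozyme of myeloid cells, was at 51.4, 55.0, 49.6, 48.4 and 52.6 CPM in sham and 144, 76.2, 83.9, 72.7 and 90.1 CPM in TAC. The sham libraries differed little among themselves, and every TAC library lay above them (log2 fold change 0.86 ± 0.16, adjusted p = 0.00108, edgeR). Without TAC 1 the Lyz2 log2 fold change was 0.65 (adjusted p = 4.39e-05, edgeR).

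Csf1r, the receptor on which macrophage survival depends, was at 43.4 to 53.4 CPM in sham, at 62.2 to 75.3 CPM in TAC replicates 2 to 5 and at 122 CPM in TAC 1. Its log2 fold change was 0.73 ± 0.15, and 0.53 without TAC 1. Emr1, which encodes the adhesion receptor F4/80, went from 3.45 ± 0.324 to 8.05 ± 3.18 CPM, a 2.34-fold rise. Cd68, a glycoprotein of lysosomes, and Mpeg1, a pore-forming protein that acts against ingested bacteria, had log2 fold changes of 0.93 and 0.89. Pf4 and F13a1, a chemokine and a clotting factor subunit made by platelets and by some tissue macrophages, rose least, by log2 fold changes of 0.53 ± 0.14 and 0.40 ± 0.12. In Pf4 the library labelled TAC replicate 1 was the lowest of its group, at 6.36 CPM against 7.07 to 7.83 CPM. In F13a1 the groups overlapped, and its call was lost without sham replicate 4 (edgeR adjusted p = 0.0586).

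Ms4a7, a tetraspanning membrane protein of macrophages, fell under the count minimum of the test. It had 6, 9, 6, 4 and 6 counts in sham and 67, 13, 14, 9 and 29 counts in TAC, so that 4 of the TAC libraries were above all sham libraries. The mean went from 0.729 to 3.06 CPM (exact permutation test, two-sided p = 0.0159, smallest possible 0.00794). Without TAC 1 the TAC mean was 1.89 CPM (exact permutation p = 0.0317, smallest possible 0.0159). Spi1, which encodes PU.1, is the listed marker the table does not hold under that symbol. Its Ensembl gene stands there as Sfpi1, outside the counts of markers above, and had a log2 fold change of 0.93 ± 0.30 (edgeR adjusted p = 0.0258; 0.60 without TAC 1, edgeR adjusted p = 0.0488).

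Markers of monocyte entry were split. Itgam, the integrin subunit CD11b that pairs with Itgb2, was at 6.29, 6.22, 5.94, 6.06 and 7.67 CPM in sham and 16.4, 9.79, 10.4, 10.9 and 10.98 CPM in TAC. All TAC libraries were above all sham libraries, with a log2 fold change of 0.86 ± 0.15 (adjusted p = 0.000851, edgeR) and 0.71 without TAC 1. In GENCODE M21, 68.7% of the Itgam exon bases are shared with the same-strand gene model Gm49368. Cx3cr1, the fractalkine receptor of patrolling monocytes and some resident macrophages, was at 6.60, 11.9, 8.52, 7.09 and 9.84 CPM in sham. It was at 22.4, 8.97, 6.63, 11.1 and 7.90 CPM in TAC, and only TAC 1 lay above the highest sham library. The Cx3cr1 log2 fold change was 0.38 ± 0.30 (adjusted p = 0.345, edgeR), and -0.02 without TAC 1.

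The recruited markers were close to the limit of detection, where 3 counts correspond to 0.313 to 0.408 CPM. Ccr2, the receptor that draws monocytes out of marrow and into tissue, had 1, 1, 3, 4 and 1 counts in sham and 26, 3, 4, 2 and 5 counts in TAC. Of the 40 TAC counts 26 were in TAC 1, and the other TAC libraries overlapped the sham range. The mean was 0.237 CPM in sham and 0.931 CPM in TAC (exact permutation test, two-sided p = 0.0556), and 0.412 CPM without TAC 1 (exact permutation p = 0.111). With no filter on counts, the edgeR adjusted p of Ccr2 was 0.0750. Ly6c2, which encodes the Ly6C antigen of inflammatory monocytes, had 0, 0, 0, 0 and 1 counts in sham and 1, 1, 0, 3 and 0 counts in TAC. No difference was detectable at this depth (exact permutation p = 0.167). Its near copy Ly6c1, which endothelial cells express, had 692 to 807 counts in sham and 595 to 831 counts in TAC. The transcripts of Ly6c2 share 13.9% of their 50-base stretches with Ly6c1, so part of the reads of either can be placed on both.

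The resident markers were split. Of the 5, Mrc1 and Folr2 rose and Cd163, Timd4 and Lyve1 did not pass. Their median log2 fold change was 0.29. The same genes were called without TAC 1. Summed, the 5 ran from 53.3 to 66.3 CPM in sham and from 61.7 to 83.3 CPM in TAC, with overlap. Without Lyve1 the sum ran from 28.7 to 38.6 CPM in sham and from 42.9 to 59.3 CPM in TAC (42.9 to 52.2 CPM without TAC 1), with no overlap. This subset was not planned. It leaves out the marker with the highest sham mean of the 5 (25.0 CPM), which did not rise. Mrc1 made up 16.3 CPM of the remaining sham mean of 33.8 CPM. Mrc1, the mannose receptor that takes up glycoproteins, was at 15.3, 15.5, 19.8, 11.8 and 19.0 CPM in sham and 35.1, 27.9, 23.9, 28.7 and 22.9 CPM in TAC. All TAC libraries were above all sham libraries (log2 fold change 0.77 ± 0.14, adjusted p = 0.00125, edgeR; 0.67 without TAC 1). Folr2, a folate receptor, was at 4.61, 4.51, 5.42, 5.49 and 5.04 CPM in sham and 10.9, 5.71, 8.20, 8.14 and 6.04 CPM in TAC. The groups did not overlap, and the log2 fold change was 0.64 ± 0.17 (adjusted p = 0.0114, edgeR; 0.49 without TAC 1). In GENCODE M21, 63.1% of the Folr2 exon bases lie under an antisense gene, whose reads cannot be told apart from those of Folr2 in libraries without strand.

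Cd163, the haemoglobin scavenger receptor, was at 11.9, 7.56, 11.1, 11.7 and 12.1 CPM in sham and 12.2, 12.4, 16.4, 13.3 and 12.6 CPM in TAC. The TAC libraries lay just above the sham libraries, yet the log2 fold change of 0.29 ± 0.13 did not pass (adjusted p = 0.100, edgeR; 0.0929 without TAC 1). With library totals in place of trimmed means it passed (0.40, adjusted p = 0.0255, edgeR). Timd4, a receptor for phosphatidylserine on dying cells, was at 1.05, 1.10, 2.33, 2.29 and 1.49 CPM in sham and 1.04, 1.22, 1.33, 2.09 and 1.32 CPM in TAC. No TAC library exceeded the highest sham library, and the log2 fold change was -0.21 ± 0.29 (adjusted p = 0.612, edgeR). Lyve1, a hyaluronan receptor of perivascular macrophages and of lymphatic endothelium, was at 23.8, 24.6, 24.0, 23.8 and 28.6 CPM in sham. In TAC it was at 14.8, 31.4, 25.1, 31.1 and 18.8 CPM, both below and above the sham libraries, with a log2 fold change of -0.05 ± 0.17 (adjusted p = 0.860, edgeR). The sign of the Lyve1 value turned without TAC 1 (0.09) and with library totals in place of trimmed means (0.05).

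**Figure D2:**
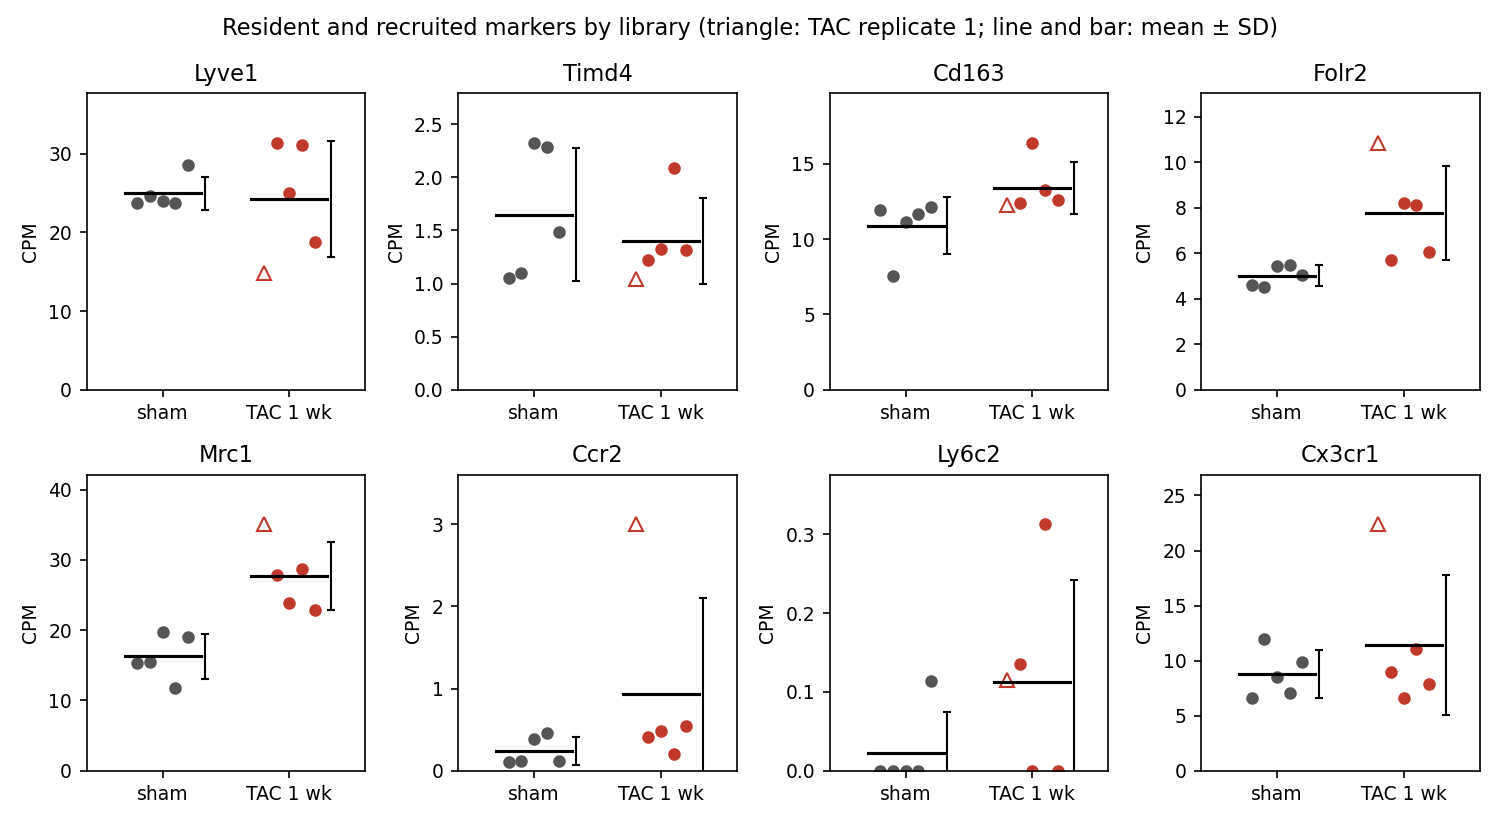
CPM (vertical axis) of the 5 resident markers, the 2 recruited markers and Cx3cr1 in sham and TAC libraries. Points are libraries, the open triangle is TAC replicate 1, lines are means and bars are SD, which are clipped at 0 where they would pass below it. Mrc1, Folr2 and, by a small margin, Cd163 separate the groups, Lyve1 and Timd4 do not, and the Ccr2 mean in TAC rests on the triangle.

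Marker reads were also set beside those of Csf1r, as counts per 100 Csf1r counts in the same library. Csf1r itself rose after TAC (log2 fold change 0.73), so a marker with an unchanged level falls in this ratio. Lyve1, whose own log2 fold change was -0.05, stood at 46.1 to 61.6 in sham. It stood at 12.1, 50.4, 33.3, 41.5 and 26.9 in TAC replicates 1 to 5, so 4 of the TAC libraries were below all sham libraries. Timd4 stood at 2.06 to 4.63 in sham and 0.849 to 2.78 in TAC. Folr2 and Mrc1 kept overlapping ranges, at 8.45 to 10.8 against 8.65 to 10.9 and at 23.0 to 40.9 against 28.7 to 44.8. Cd163 overlapped as well, at 14.2 to 27.5 in sham and 10.0 to 21.8 in TAC. Emr1 lay higher in every TAC library, at 8.90 to 11.1 against 6.26 to 8.62 in sham. Trem2 did so by a very narrow margin, at 5.66 to 8.962 against 3.196 to 5.656 in sham. Ccr2 stood at 0.228 to 0.895 in sham, 2.45 in TAC 1 and 0.278 to 0.786 in the other TAC libraries. These ratios are given as values with no test, and part of the Csf1r exons (15.1%) lies under the antisense gene Hmgxb3.

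**Figure D3:**
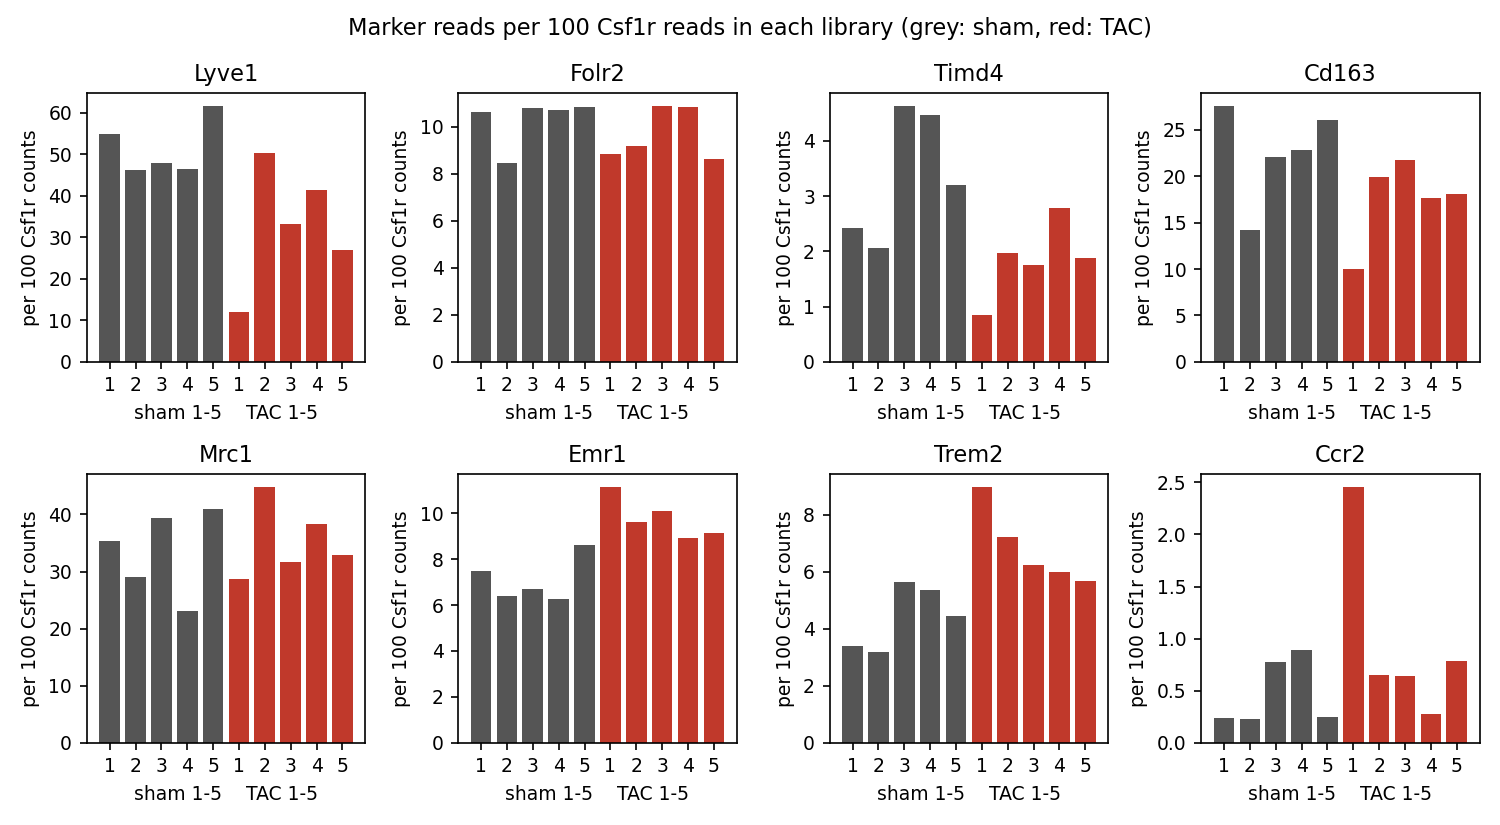
Counts of 8 markers per 100 Csf1r counts (vertical axis) in each library (horizontal axis, sham replicates 1 to 5 in grey, TAC replicates 1 to 5 in red). Lyve1 is lowest in TAC 1, at 12.1, while Emr1 is higher in all TAC libraries than in all sham libraries. Csf1r itself rose after TAC, which lowers the ratio of an unchanged marker.

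Among the other clearance receptors, Cd14, the co-receptor for bacterial lipopolysaccharide, rose from 10.2 ± 3.07 to 17.1 ± 4.49 CPM (SD, n = 5 each; edgeR adjusted p = 0.0175), with overlapping groups. With Mrc1 and Folr2 it made 3 of the 8 scavenger and clearance receptors that rose. Msr1, the class A scavenger receptor, had a log2 fold change of 0.62 ± 0.31 (edgeR adjusted p = 0.143) and of 0.28 without TAC 1, and it passed only without TAC 5 (edgeR adjusted p = 0.0498). Mertk, the kinase receptor through which macrophages engulf dying cells, was at 8.79 ± 0.996 CPM in sham and 8.91 ± 1.61 CPM in TAC (log2 fold change 0.02 ± 0.13, edgeR adjusted p = 0.914).

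The group of antibody (Fc) receptors, Trem2 and signalling adaptors rose in all 5 cases (Fcgr3, Fcer1g, Trem2, Tyrobp and Fcgr1; median log2 fold change 1.03), and in 4 of 5 without TAC 1. Fcgr3, an activating receptor for IgG, was at 4.61, 5.73, 5.17, 4.58 and 6.18 CPM in sham and 15.1, 9.51, 9.88, 9.50 and 9.44 CPM in TAC. TAC replicates 2 to 5 were nearly level, above all sham libraries, and Fcgr3 had the smallest adjusted p of the markers (log2 fold change 1.03 ± 0.16, adjusted p = 0.000414, edgeR; 0.87 without TAC 1). Its transcripts share 9.6% of their 50-base stretches with Fcgr2b, the inhibitory receptor for IgG, which itself rose (log2 fold change 1.15 ± 0.22, adjusted p = 0.00143, edgeR). Fcer1g, the signalling chain that Fcgr3 needs at the surface, was at 4.40, 3.90, 3.75, 3.32 and 4.69 CPM in sham and 11.8, 6.39, 7.59, 5.01 and 7.90 CPM in TAC. The groups did not overlap (log2 fold change 0.94 ± 0.21, adjusted p = 0.00399, edgeR).

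Trem2, a lipid-sensing receptor, went from 2.16 ± 0.613 to 5.72 ± 2.95 CPM (log2 fold change 1.41 ± 0.32), with TAC 1 at 10.98 CPM and the other TAC libraries at 3.95 to 4.70 CPM. Without TAC 1 its log2 fold change was 1.03 (edgeR adjusted p = 0.00182). Tyrobp, the adaptor DAP12 through which Trem2 signals, had a log2 fold change of 0.73. Fcgr1, the high-affinity receptor for IgG, stood at 7.17 CPM in TAC 1 against 1.36 to 1.93 CPM in the other TAC libraries. Its rise (log2 fold change 1.45 ± 0.53, edgeR adjusted p = 0.0463) did not pass without TAC 1 (0.68, edgeR adjusted p = 0.0996). It also did not pass without TAC 3 or without any 1 of the 5 sham libraries (edgeR adjusted p from 0.0551 to 0.105).

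Of the activation markers, Lgals3, the galectin that macrophages release in large amounts, was at 3.25, 1.95, 1.81, 2.52 and 2.63 CPM in sham and 12.95, 4.35, 3.86, 3.03 and 3.40 CPM in TAC. TAC 4 lay below the highest sham library, and TAC 1 was far above the rest. The log2 fold change of 1.16 ± 0.40 (edgeR adjusted p = 0.0373) became 0.56 without TAC 1 (edgeR adjusted p = 0.0481), and the call was lost with limma-voom (adjusted p = 0.0758) and without sham replicate 2, 3, 4 or 5 (edgeR adjusted p from 0.0641 to 0.0791). Gpnmb, a glycoprotein of lipid-laden macrophages, was not tested. It had 8, 1, 3, 0 and 4 counts in sham and 13, 4, 7, 5 and 6 counts in TAC, with overlap (exact permutation p = 0.0794).

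The phagocyte oxidase, which makes superoxide, rose in all 3 subunits tested, and in 2 of 3 without TAC 1. Cyba, the small membrane subunit that many other cells make, was at 18.2, 20.4, 19.2, 23.2 and 21.7 CPM in sham and 34.7, 24.9, 27.1, 29.2 and 27.1 CPM in TAC. The groups did not overlap (log2 fold change 0.48 ± 0.10, adjusted p = 0.00204, edgeR). Ncf1, the cytosolic organizer subunit, was at 4.19, 5.61, 4.91, 5.26 and 7.21 CPM in sham and 12.0, 8.15, 7.23, 12.9 and 6.92 CPM in TAC, where TAC 5 fell within the sham range (log2 fold change 0.80 ± 0.21, edgeR adjusted p = 0.00851). Cybb, the catalytic subunit, passed only narrowly with all libraries (log2 fold change 0.88 ± 0.29, edgeR adjusted p = 0.0317) and did not pass without TAC 1 (0.51, edgeR adjusted p = 0.0536). Nor did it pass without TAC 3 or without sham replicate 1, 4 or 5 (edgeR adjusted p from 0.0507 to 0.0720).

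**Figure D4:**
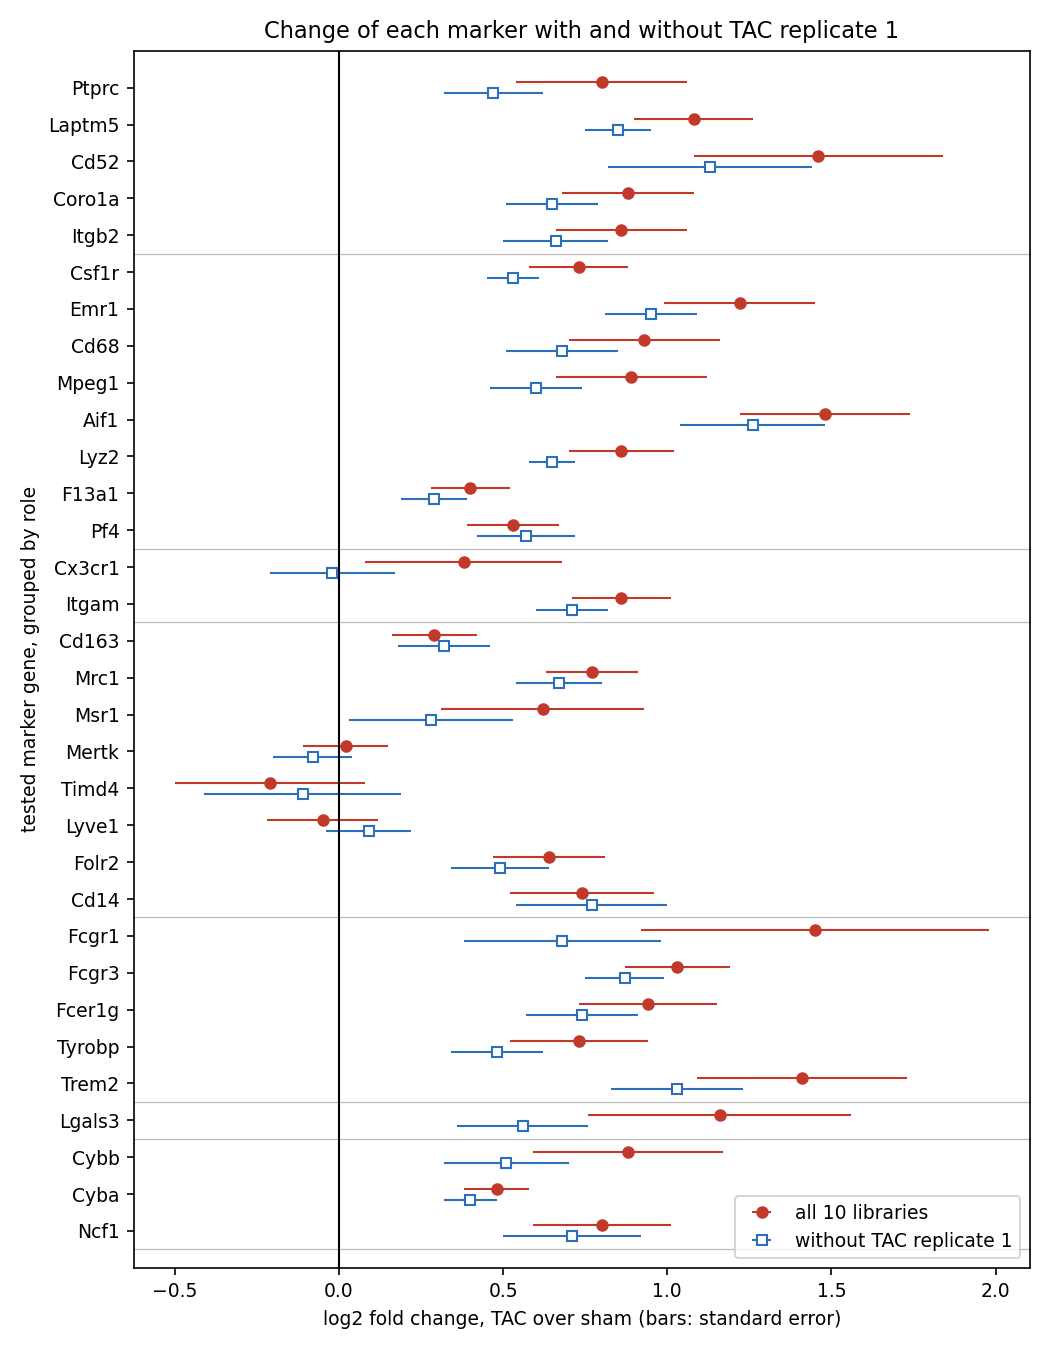
Log2 fold change of TAC over sham (horizontal axis, bars are standard errors) for the 32 tested markers (vertical axis, grouped by role), from all 10 libraries (filled circles) and without TAC replicate 1 (open squares). The squares lie left of the circles in 27 of 32 genes, and Timd4, Lyve1, Mertk and Cx3cr1 lie near 0.

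Per kilobase of exon, Lyz2 was the most abundant marker in sham, at 39.1 CPM per kilobase. Cyba followed at 19.8, Tyrobp at 12.9, and Lyve1, Cd68 and Csf1r at 8.55, 8.54 and 8.47 CPM per kilobase. The lowest were Ms4a7, Gpnmb, Ccr2 and Ly6c2, at 0.164, 0.0554, 0.0351 and 0.00835 CPM per kilobase.

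Signals that act on these cells were read from a second list. Of 18 ligands of monocytes and macrophages 10 were tested, and 3 rose (Mif, Il34 and Csf1), beside 18.8% of all tested genes. Ccl2, the ligand of Ccr2, had a log2 fold change of 0.99 ± 0.46 that did not pass (edgeR adjusted p = 0.113) and was 0.39 without TAC 1. Csf1 and Il34, the growth factors for the Csf1r receptor, had log2 fold changes of 0.34 (edgeR adjusted p = 0.0275) and 0.48 (edgeR adjusted p = 0.0196). Csf1 did not pass without TAC 1 (edgeR adjusted p = 0.0607). Mif, a cytokine that holds macrophages in place, had 0.30. Cx3cl1, the ligand of Cx3cr1, went from 18.2 ± 4.57 to 24.6 ± 7.07 CPM and did not pass (edgeR adjusted p = 0.0996). In a list of adhesion molecules on which leukocytes stop at the vessel wall, 5 of 7 tested rose, beside 18.8% of all tested genes. Without TAC 1 it was 4, beside 16.7%, as Sele did not pass (edgeR adjusted p = 0.08015). F11r (log2 fold change -0.02, edgeR adjusted p = 0.816) and Itga4 (0.37, edgeR adjusted p = 0.217) did not pass in either fit. Icam2, Selplg, Icam1 and Vcam1 had log2 fold changes of 0.60, 0.82, 0.40 and 0.87, of which Selplg, the selectin ligand, sits on the leukocyte itself.

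Few cytokine and polarization genes had enough counts: 5 of 15 were tested, and Igf1, Tgfb1 and Nos2 rose, beside 18.8% of all tested genes. Igf1, a growth factor that macrophages and fibroblasts release, went from 6.79 ± 1.03 to 20.02 ± 7.26 CPM (SD, n = 5 each; log2 fold change 1.55 ± 0.21, edgeR adjusted p = 0.000186). Tgfb1, which drives matrix production, had a log2 fold change of 0.59 and Nos2, the inducible nitric oxide synthase, one of 0.48. Tnf had 1.00 ± 0.42 (edgeR adjusted p = 0.0792) and Ptgs2 0.76 ± 0.44 (edgeR adjusted p = 0.203), and neither passed.

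Markers of other blood cells were read beside the marker group, since Ptprc, Itgb2, Coro1a, Fcer1g and others are shared with them. Of 14 neutrophil genes 2 were tested: Csf3r rose (log2 fold change 0.90, edgeR adjusted p = 0.0119) and Mmp9 had -0.16 (edgeR adjusted p = 0.636). Ly6g and Elane were at 0 in all libraries, and the summed level was 5.00 to 14.1 CPM in sham and 6.81 to 11.6 CPM in TAC. Most of the mean sum, 8.504 and 9.243 CPM, was Mmp9 and Csf3r. These averaged 3.702 and 2.105 CPM in sham and 3.283 and 3.949 CPM in TAC. Of 14 T, B and NK cell genes only Cd4, which some macrophages also carry in some species, was tested, and it rose (log2 fold change 1.11 ± 0.26, edgeR adjusted p = 0.00509). Cd3d, part of the T cell receptor complex, averaged 0.551 CPM in sham and 0.496 CPM in TAC. The whole list summed to 3.20 to 5.49 CPM in sham and 4.28 to 6.36 CPM after TAC. Of 8 mast cell genes Kit rose (log2 fold change 1.22 ± 0.20, edgeR adjusted p = 0.000581) and Hdc had 0.50 (edgeR adjusted p = 0.0803), while Fcer1a and Ms4a2 were at 0 in all libraries. This list summed to 5.87 to 10.8 CPM in sham and 13.1 to 17.5 CPM in TAC. Most of that sum was Kit and Hdc, which averaged 4.86 and 3.002 CPM in sham and 11.2 and 4.29 CPM in TAC. The mast cell proteases were low in both groups, with Cma1 at 0.231 and 0.115 CPM, Tpsb2 at 0.335 and 0.282 CPM and Mcpt4 at 0.188 and 0.228 CPM in sham and TAC, and Cpa3 at 1 count over all libraries. Of 8 dendritic cell genes Clec9a and Zbtb46 were tested and 0 passed by edgeR, DESeq2 or limma-voom (0 also at an unadjusted p under 0.05 with edgeR), with sums of 29.5 to 43.6 CPM and 37.4 to 43.8 CPM. Zbtb46 alone averaged 30.8 CPM in sham and 32.4 CPM in TAC, so these sums mostly reflect that gene. The erythroid list summed to 275.6 to 1688 CPM in sham libraries and 1000 to 2137 CPM in the TAC ones, and 0 of its 5 tested genes passed by the same tools (0 at an unadjusted p under 0.05 with edgeR). The part of these cells in the marker results was not tested.

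The processing that the submitters list differs between the groups, with other aligner versions and genome builds for the TAC libraries, and its effect cannot be told apart from that of the operation. The replicates are taken as separate mice because the design text counts mice, although no animal identifiers are given.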

How the data were processed

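The authors deposited raw read counts per gene, as whole numbers. The submitters' processing notes name Bowtie2, TopHat2 2.0.10, TopHat, HTSeq and mm10 for sham. For TAC they name TopHat 1.3.0 with Bowtie and HTSeq, and both mm9 and mm10. They also name DESeq and edgeR. The ID column is headed with mouse build GRCm37. Per the labels' protocols the libraries are single-end and keep no strand. A row of totals was left out.

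Counts were tested with edgeR 4.0.16 (quasi-likelihood, R 4.3.3, limma 3.58.1), TMM scaling, filterByExpr (minimum count 10, minimum total 15) and Benjamini-Hochberg adjustment at 0.05 over all 12001 tested genes. Untested markers were compared by exact permutation tests. Alternatives were DESeq2 1.42.0, limma-voom, robust dispersion, library totals, no filter, a replicate block and leaving out each library. The fits were tested on simulated data. Exon lengths and shared 50-base stretches came from GENCODE M21, matching 94.6% of IDs.

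Any marker could be named. Values per library were given for the resident and recruited markers and for markers not tested. They were also given for up to 2 tested markers per role with the smallest adjusted p. From each other list up to 4 tested genes with the smallest adjusted p were planned for naming. Further genes were named beside them. The members and lists were chosen with earlier results of these data known. Protein sequences were not used here.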

Additional observations from a re-analysis of the deposited data

Results flagged for a closer look

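The levels of the 32 tested markers were searched for a library that stood apart from the other 4 of its group, by the gap to the nearest other library as a share of the group's range. Of 64 groups tested 24 held such a library. The rule's nominal rate is about 1 in 20 for independent, normally distributed values. The groups all come from the same 10 libraries and are not independent. The share among all tested genes was not computed, so the count cannot be read as particular to the markers. The library labelled TAC replicate 1 was the one that stood apart in 17 of the 24, and it was the highest of its group in all 17.

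Among general leukocyte and lineage markers, in CPM against the range of the other TAC libraries, it had Cd68 at 33.17 CPM against 15.49 to 18.55, Itgb2 at 17.11 CPM against 9.521 to 10.06, Laptm5 at 72.59 CPM against 34.79 to 43.63 and Ptprc at 11.33 CPM against 4.485 to 5.378. It also had Emr1 at 13.64 CPM against 5.98 to 7.593, Csf1r at 122.5 CPM against 62.24 to 75.32, Lyz2 at 144.5 CPM against 72.66 to 90.12, Mpeg1 at 25.08 CPM against 10.24 to 12.62 and Aif1 at 5.895 CPM against 2.772 to 3.654. Of the trafficking markers it had Itgam at 16.41 CPM against 9.785 to 10.98 and Cx3cr1 at 22.42 CPM against 6.629 to 11.07. In the group of Fc receptors, Trem2 and adaptors it had Trem2 at 10.98 CPM against 3.951 to 4.7, Fcgr1 at 7.166 CPM against 1.357 to 1.928, Fcgr3 at 15.14 CPM against 9.44 to 9.883 and Tyrobp at 23.35 CPM against 10.96 to 13.02. It further had Lgals3 at 12.95 CPM against 3.027 to 4.349 and Cybb at 15.83 CPM against 5.164 to 7.834.

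In other TAC libraries, Cd163 at 16.39 CPM against 12.25 to 13.26 in replicate 3 and Timd4 at 2.088 CPM against 1.04 to 1.326 in replicate 4 stood apart. In sham, replicate 5 was high for Emr1 at 4.005 CPM against 3.202 to 3.414, Itgam at 7.667 CPM against 5.941 to 6.289 and Lyve1 at 28.61 CPM against 23.79 to 24.63. Sham replicate 2 stood apart with Cd163 at 7.56 CPM against 11.11 to 12.13 and Itgb2 at 9.146 CPM against 5.032 to 6.07.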

How the results depend on the processing

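Of the 26 markers that rose, 21 were called in all 16 alternatives. The exceptions were Fcgr1 (lost in 9), Cybb (7), Lgals3 (6), Ptprc (2, without sham replicate 4 or 5) and F13a1 (1, without sham replicate 4). Of the 6 not called, 4 stayed so, Cd163 passed with library totals (log2 fold change 0.40, edgeR adjusted p = 0.0255) and Msr1 passed without TAC replicate 5 (edgeR adjusted p = 0.0498). The number of markers that rose was 22 to 27 when 1 library was left out, 26 with DESeq2, 23 with limma-voom, 24 with robust dispersion, and 27 with library totals or with no filter. Library totals moved the median of all genes by 0.11 (log2) and gave 3252 genes higher and 1163 lower (73.7% higher) against 2251 and 2040 (52.5% higher). Lgals3, the tested member of the lysosomal and galectin group, was lost with limma-voom and with robust dispersion (0 called), and 0 to 1 were called when 1 library was left out. In the cytokine list 1 gene, Retnla, fell with no filter, and 0 to 1 fell when 1 library was left out. In the mast cell list 2 genes rose with library totals, and 1 to 2 when 1 library was left out. The cause was not tested.

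No pairing by replicate number was visible in the expression levels. Deviations of same-numbered libraries correlated by 0.005, -0.039, 0.059, 0.222 and -0.092, and 1 of 5 matched its own number best. A pairing that leaves no such trace would not be seen this way. With the number as a block 25 markers rose (Cybb was lost, edgeR adjusted p = 0.0532), and 2113 genes rose and 1924 fell.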

Other observations

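Some untested genes of the lists, picked out after their values were seen, were abundant in the library labelled TAC replicate 1 alone. Spp1, which encodes osteopontin, stood at 17.3 CPM there and averaged 0.528 CPM in the other TAC libraries and 0.194 CPM in sham. Ccl8, a chemokine for monocytes, stood at 7.17 CPM, against 0.766 and 0.181 CPM, and Itgax, the integrin subunit CD11c, at 2.31 CPM, against 0.353 and 0.326 CPM. Retnla, a gene of alternatively activated macrophages, went the other way, from a mean of 1.64 CPM in sham to 0.513 CPM in TAC. The groups overlapped, with 5, 13, 16, 22 and 13 counts in sham and 4, 4, 5, 6 and 3 counts in TAC. Without TAC replicate 1 the count filter asked for fewer libraries. Retnla then passed it only through sham libraries, where it was high (log2 fold change -1.60, edgeR adjusted p = 0.0133). That value is therefore no independent support for a fall.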
